A study of Mus musculus with 5 samples.

Results

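Astrocytes were examined in single-nucleus RNA-seq data of the mouse brain as the nuclei that carried astrocyte marker RNA and little RNA of the genes that mark oligodendrocytes and microglia. A nucleus was chosen when it held at least 6 summed unique molecular identifiers (UMIs, each standing for 1 captured RNA molecule) of Slc1a2, Gpc5, Slc4a4, Aqp4, Gja1, Ntsr2, Rfx4 and Bmpr1b. It could hold at most 2 summed UMIs of the oligodendrocyte genes St18, Mog and Mag, at most 2 of the microglial genes P2ry12, Siglech and Gpr34, and at most 1 of Col23a1 and Sfta3-ps. These limits chose 607 of the 9505 nuclei that passed the limits on genes, UMIs and mitochondrial RNA, out of 9748 deposited nuclei.

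The study compared mice heterozygous for the R241E allele of Cgas that also carried Tmem119-creERT2 (R241E, 2 mice) with Tmem119-creERT2 mice whose Cgas was wild type (WT, 3 mice). Both groups were on a C57BL/6 background and received tamoxifen as young adults, and 1 library was made per mouse. The study describes expression of the allele under this driver as largely limited to microglia and brain macrophages. Whether the driver acted in any astrocytes was not tested. The allele changes 1 amino acid and gene counts cannot check it. The sort kept DAPI-stained nuclei without NeuN and Olig2 to enrich microglia, and the labels name the hippocampus while the study's methods name brain tissue without a region. The titles and the methods give wild-type Cgas for the controls, whereas the study's results text calls them heterozygous. The titles were followed.

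Astrocytes are the glial cells that clear glutamate from synapses, buffer potassium, contact blood vessels with their endfeet and supply neurons with lipoproteins and metabolites. They carry the type I interferon receptor IFNAR, which activates the kinases JAK1 and TYK2 and the transcription factor ISGF3, and ISGF3 switches on antiviral genes through interferon-stimulated response elements. cGAS makes a second messenger when it senses DNA, and STING passes the signal on to type I interferon. R241E weakens the binding of cGAS to nucleosomes, which otherwise hold it inactive.

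The chosen nuclei numbered 210 and 131 in R241E replicates 1 and 2, and 71, 58 and 137 in WT replicates 1 to 3. The median nucleus held 5058 and 3542 UMIs in R241E, against 5051, 4527 and 3159 in WT, and these ranges overlapped. No cell barcode was shared between libraries among the chosen nuclei. Just inside the limit on marker UMIs, 17 nuclei held 6 and 18 held 7, and just outside it 32 nuclei held 5 and 45 held 4. Of 837 nuclei with at least 6 marker UMIs, 187 went over the limit on Col23a1 and Sfta3-ps, 48 over the limit on microglial genes and 4 over the limit on oligodendrocyte genes.

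The data went against the astrocyte label for 84 of the 607 nuclei. These held at least 5 summed UMIs of Slc47a1, Slc26a7, Slc4a10, Bnc2 and Tbx15, with a median of 75 such UMIs. Their median over 3 core astrocyte genes, the glutamate transporters Slc1a2 and Slc1a3 and the gene Ndrg2, was 0 UMIs, and 49 of them held none. Slc1a2 is also a gene of the rule, whereas the rule did not use Slc1a3 and Ndrg2. Slc4a10 stood at 7219 CPM (UMIs of a gene as a part of 1000000 UMIs) and Slc47a1 at 3858 CPM in their summed counts, while Slc1a2 stood at 27.3 CPM. They had met the rule mainly through Gpc5 at 2776 CPM, Slc4a4 at 813 CPM and the gap junction gene Gja1 at 458 CPM. None of the 607 nuclei held 3 or 4 UMIs of the 5 genes and 5 nuclei held 5 to 7, so few nuclei lay near the limit. They are called Slc47a1-high nuclei here and are given no cell type name. They numbered 47 and 17 in the R241E libraries, 22.4% and 12.98% of the chosen nuclei, and 8, 5 and 7 in the WT libraries, 11.3%, 8.62% and 5.11%.

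A further 26 chosen nuclei held more than 2 UMIs of neuronal genes such as Snap25, Syt1 and Gad1, with 9 and 0 in R241E, against 13, 2 and 2 in WT. Without these and the Slc47a1-high nuclei, 497 nuclei were left: 154 and 114 in R241E, and 50, 51 and 128 in WT. Their median over the 3 core genes was 19 UMIs. Of the core genes that the rule did not use, Slc1a3 stood at 1413 CPM and Ndrg2 at 848 CPM in their summed counts, against 70.6 and 114 CPM in the Slc47a1-high nuclei. All 27 astrocyte markers outside the rule stood higher in this set than in the kept nuclei outside the 607, though to unlike degrees. Cst3 stood at 1.33 times, S100b at 2.31 times and Glul at 2.68 times the level there, and Acsbg1, the highest, at 39.2 times. The set of 497 nuclei was defined after the data had been seen, and results are given for all 607 nuclei first and for the 497 nuclei beside them.

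**Figure D1:**
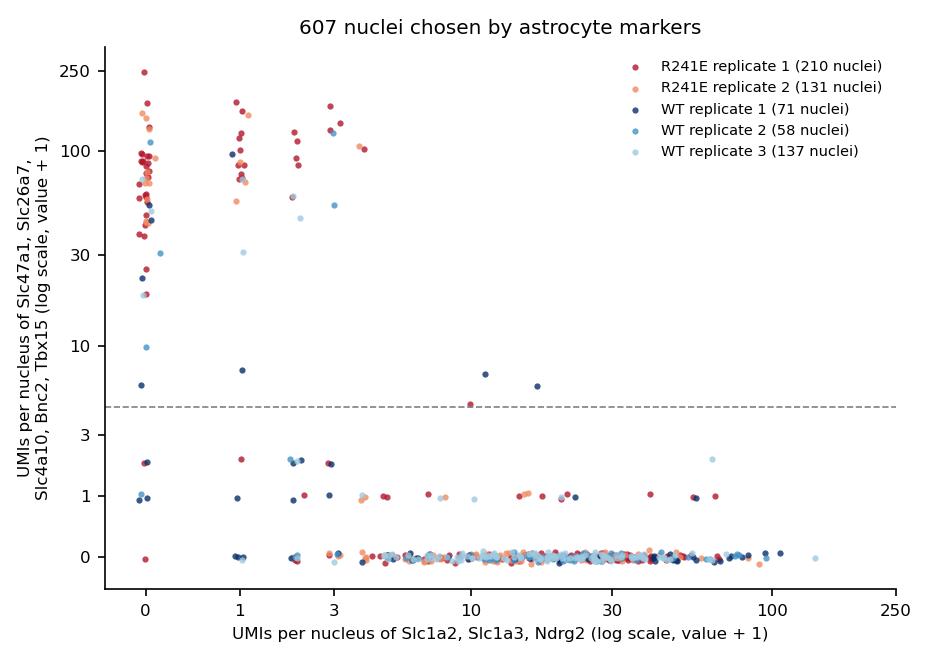
Each point is 1 of the 607 chosen nuclei, coloured by mouse, with summed UMIs of Slc1a2, Slc1a3 and Ndrg2 on the x axis and of Slc47a1, Slc26a7, Slc4a10, Bnc2 and Tbx15 on the y axis (both log scales of the value plus 1, points slightly spread). The dashed line separates the 84 Slc47a1-high nuclei above it, most of which lie at the left edge with 0 or few core astrocyte UMIs, from the others.

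The chosen nuclei made up 8.74% and 9.65% of the kept nuclei in R241E, against 4.63%, 2.95% and 6.10% in WT. Both R241E shares lay above all WT shares, with group means of 9.20% ± 0.647 (SD, n = 2) and 4.56% ± 1.58 (SD, n = 3). The difference of 4.64 percentage points had an exact two-sided permutation p = 0.1, the smallest that 2 against 3 libraries allow. Over the nuclei outside the microglial limits alone, the shares were 14.8% and 15.04% in R241E and 11.4%, 10.4% and 15.3% in WT, and the groups overlapped (exact permutation p = 0.4). The 497 nuclei gave 6.41% and 8.401% against 3.26%, 2.595% and 5.70% of kept nuclei (exact permutation p = 0.2 for 2 and 3 libraries). These shares depend on a sort that selected microglia and are not shares of brain cells.

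The regional make-up of the astrocytes differed between the libraries and moved with genotype. Astrocytes of the telencephalon, the hippocampus included, express the homeobox factor Lhx2, and those of the diencephalon and hindbrain express angiotensinogen (Agt) and, in places, Pax3. In the 497 nuclei Lhx2 was at 0 CPM in R241E replicate 1 and 58.8 CPM in R241E replicate 2, against 85.2, 93.2 and 122 CPM in WT replicates 1 to 3. Agt went the other way, with 232 and 260 CPM in R241E and 115, 120 and 36.8 CPM in WT. Telencephalic genes took 9.93% and 24.3% of the regional UMIs in all chosen nuclei of R241E and 28.3%, 37.6% and 57.0% in WT. The groups did not overlap for Lhx2, for Agt or for that share in all chosen nuclei, where group means differed by 23.9 percentage points.

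That difference in the telencephalic share had an exact two-sided permutation p = 0.2 over 2 and 3 libraries. With Lhx2 and Agt alone the share of Lhx2 was 0.515% and 18.5% in R241E and 42.9%, 42.9% and 76.1% in WT (exact permutation p = 0.1). The hippocampus label was therefore not borne out by regional genes in R241E replicate 1, and most libraries held astrocytes with genes of several regions. Region and genotype can be told apart only in part. For the interferon list, for many of the called genes and for Apoe, values are therefore also given in nuclei grouped by the regional genes they held.

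Between genotypes, 33 of 8207 tested genes were called in the 607 nuclei by edgeR's quasi-likelihood test on counts summed per mouse (adjusted p under 0.05, 0.402% of genes tested). In R241E 24 genes were higher (0.292%) and 9 were lower (0.11%). Of the 24 higher genes, 19 had more than 3 times the level in Slc47a1-high nuclei than in the 497 nuclei, and 4 of these, Bnc2, Slc26a7, Slc4a10 and Tbx15, had served to set the Slc47a1-high nuclei apart. The transcription factor gene Ebf1 is an example, with 117 and 110 CPM in R241E and 2.82, 7.31 and 8.47 CPM in WT over all chosen nuclei. Among the 497 nuclei Ebf1 stood at 11.3 and 2.45 CPM against 0, 4.44 and 2.30 CPM, and the groups overlapped. The mechanosensitive channel gene Piezo2 went from 150 and 122 against 36.6, 40.2 and 29.6 CPM in all chosen nuclei to at most 8.52 CPM in any library of the 497.

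The called genes that were higher in R241E and not concentrated in Slc47a1-high nuclei included Oasl2, Gm4951, Ifi27 and Gm44148. Oasl2 belongs to the oligoadenylate synthetase-like antiviral family and Gm4951 is an interferon-inducible GTPase. Ifi27 encodes an interferon-inducible mitochondrial protein. Gm44148 lies at chr6:121255175-121272738 (GRCm38.p6) and overlaps Usp18 at chr6:121245906-121270917, which encodes the protease that removes ISG15 and restrains the receptor, so reads of these 2 genes may not be separable. These 4 were also called, in the same direction, in the 497 nuclei.

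Oasl2 stood at 90.5 and 61.1 CPM in R241E, against 5.63, 3.65 and 6.35 CPM in WT over the 607 nuclei (log2 fold change 3.79 ± 0.42 SE, adjusted p = 0.0223). Gm4951 stood at 112 and 73.3 CPM in R241E, against 2.82, 0 and 6.35 CPM in WT (4.64 ± 0.53, adjusted p = 0.0223). Both genes were near the limit of detection in the WT astrocytes and were measured by many UMIs in each R241E mouse. Ifi27 had 124 and 151 CPM against 42.3, 43.9 and 42.3 CPM (1.67 ± 0.23, adjusted p = 0.036). The groups did not overlap for any of these genes.

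The calls in all chosen nuclei depended on single libraries. Without R241E replicate 1, without WT replicate 2 or without WT replicate 3, edgeR called 0 genes, with 433, 734 and 787 genes at an unadjusted p under 0.05. Without R241E replicate 2 it called 7 and without WT replicate 1 it called 8. Gm4951 and Oasl2 kept an adjusted p of 0.0445 each without R241E replicate 2, and their highest adjusted p, without R241E replicate 1, was 0.372 and 0.448. The fold changes of the 33 genes kept their sign in all of these fits.

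Over the 497 nuclei 39 of 7242 tested genes were called (0.539%), 24 higher (0.331%) and 15 lower in R241E (0.207%), and 10 of the 39 had been called in all chosen nuclei. Of the 24 higher genes, 12 belonged to the lists of interferon-stimulated, class I or interferon-signalling genes, and Gm44148 overlapped one of them. This number depended on single libraries too. Without WT replicate 2 no gene was called by edgeR (550 at an unadjusted p under 0.05), without R241E replicate 1 there were 2, without WT replicate 3 there were 19, without WT replicate 1 there were 61 and without R241E replicate 2 there were 120. DESeq2 called 13 genes in these nuclei and limma-voom 15.

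Among the antiviral genes of the 497 nuclei, Ddx60, a helicase that assists RNA sensing, stood at 111 and 108 CPM in R241E, against 0, 0 and 25.3 CPM in WT (3.23 ± 0.57, adjusted p = 0.0269). Usp18 stood at 55.1 and 31.9 CPM against 0, 0 and 6.91 CPM (3.71 ± 0.71, adjusted p = 0.0351). Ddx58, which encodes the RNA sensor RIG-I, had 55.1 and 44.1 CPM against 12.8, 13.3 and 6.91 CPM (2.32 ± 0.46, adjusted p = 0.0405). All 3 were higher in both R241E mice than in every WT mouse. Lgals3bp, a secreted galectin-binding glycoprotein, had 60.1 and 39.2 CPM against 8.52, 4.44 and 9.21 CPM (2.72 ± 0.50, adjusted p = 0.0292). Trim30d and Trim34a, of the tripartite motif family, were also called, at 61.4 and 58.8 against 12.8, 4.44 and 18.4 CPM, and at 119 and 120 against 21.3, 22.2 and 57.6 CPM. In this set Oasl2 had 97.7 and 56.4 CPM against 8.52, 0 and 6.91 CPM, and Gm4951 had 124 and 71.1 CPM against 0, 0 and 6.91 CPM.

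**Figure D2:**
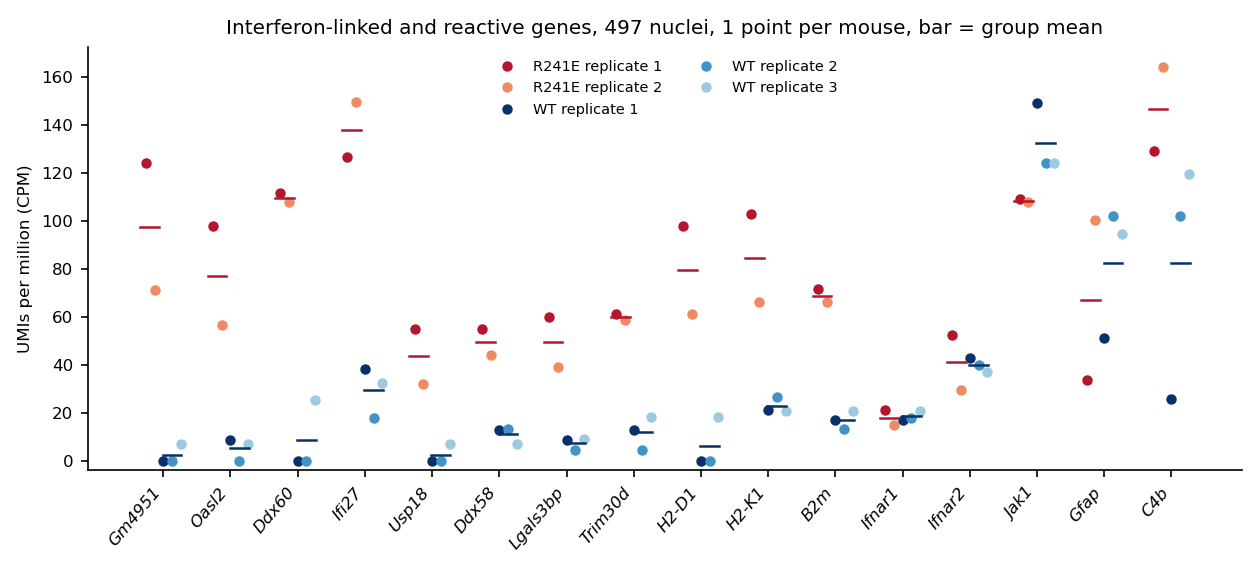
CPM in the 497 nuclei of the genes named on the x axis, with 1 point per mouse and a bar at each group mean. The 2 R241E mice lie above the 3 WT mice for each gene from Gm4951 to B2m, whereas the groups overlap for Ifnar1, Ifnar2 and Gfap.

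The list of interferon-stimulated genes as a whole lay to the R241E side in all chosen nuclei. It held 73 genes, of which 70 were in the files, and 7 of these had no UMI in any of the 607 nuclei: Oas3, Ifi44l, Ifi204, Ifi207, Slfn2, Phf11d and Ccl2. Of the 63 genes with a UMI, 42 were higher in both R241E mice than in all WT mice, which is 66.7% against 10.9% of all 20461 genes with a UMI, 1 was lower and 20 overlapped. The lower one was Cmpk2, measured at 0.896 and 2.04 against 2.82, 3.65 and 8.47 CPM. The median log2 fold change of the list without a filter on low counts was 2.02, against 0.06 over all genes. Only 29 members passed the filter on low counts and 3, Oasl2, Gm4951 and Ifi27, were called. Over the 497 nuclei 38 of the 59 members with a UMI were higher without overlap, against 10.7% of all genes, 1 was lower, against 7.97%, and 8 of the 23 tested members were called.

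Several of the classical interferon genes were too low for the test. Iigp1, a GTPase that attacks intracellular parasites, had 43.8 and 12.3 CPM in the R241E astrocytes of the 497 nuclei and no UMI in WT, at least 9.89-fold higher against a limit of 3 UMIs over the WT group. Ifi44 had 20.0 and 9.81 CPM and Isg15, the ubiquitin-like modifier, 11.3 and 17.2 CPM, both with no UMI in WT, which gives at least 4.94-fold and at least 3.95-fold. Each of these genes was seen in both R241E mice and in none of the WT mice. The antiviral effector Ifit1 was tested at 47.6 and 36.8 against 0, 0 and 9.21 CPM and missed the threshold (adjusted p = 0.0503). Ifit3 at 78.9 and 34.3 against 12.8, 8.88 and 18.4 CPM (adjusted p = 0.076) and the ubiquitin ligase gene Rnf213 at 118 and 83.4 against 42.6, 39.9 and 41.4 CPM (adjusted p = 0.0708) did so as well.

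Promoter sequences of the interferon genes were read from RefSeq (GRCm38.p6) to show the letters that ISGF3 is known to bind. The motif searched was GAAA, any 2 bases and GAAA again, on both strands, in the 250 bases before each gene's start. It was found in 26 of the 54 interferon-list genes that had an entry (48.1%, with 16 genes without one), in 3 of 19 class I genes (15.8%) and in 936 of 27025 genes in the table (3.46%). The windows below are those of called genes and of 4 well-known interferon genes measured here, written 5′ to 3′ on the gene's strand, with the matches on either strand in capitals. They are Ddx60 at chr8:61928009-61928086 (plus), B2m at chr2:122147523-122147582 (plus), Trim30d at chr7:104507856-104507915 (minus), Ifit1 at chr19:34640760-34640838 (plus), Ifit3 at chr19:34583348-34583441 (plus), Isg15 at chr4:156200850-156200921 (minus) and Stat2 at chr10:128270251-128270310 (plus).
Ddx60: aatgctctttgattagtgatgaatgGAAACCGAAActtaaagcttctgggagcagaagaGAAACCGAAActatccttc
B2m: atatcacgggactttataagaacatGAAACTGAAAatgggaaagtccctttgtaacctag
Trim30d: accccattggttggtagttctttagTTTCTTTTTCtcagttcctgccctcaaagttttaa
Ifit1: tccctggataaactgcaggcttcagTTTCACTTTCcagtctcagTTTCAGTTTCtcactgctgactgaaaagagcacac
Ifit3: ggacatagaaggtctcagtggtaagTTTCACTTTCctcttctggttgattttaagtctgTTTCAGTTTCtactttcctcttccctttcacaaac
Isg15: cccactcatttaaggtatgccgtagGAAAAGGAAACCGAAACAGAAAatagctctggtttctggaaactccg
Stat2: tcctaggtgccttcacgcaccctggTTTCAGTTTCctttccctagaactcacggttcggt

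Ddx60, Ifit1 and Ifit3 held 2 matches each, and 3 overlapping matches formed 1 block in Isg15. These letters were not in the windows of Oasl2, H2-D1, H2-K1, Ddx58, Lgals3bp, Irf9 and Rnf213. Usp18 and Ifi27 had no entry in the promoter table. Of the genes called higher in the 497 nuclei, 3 of 8 in an interferon, class I or signalling list held the motif (37.5%). Outside these lists 1 of 8 held it (12.5%). Of the genes called lower, 0 of 13 with an entry held it. Since 3.46% of all genes held the motif, a count of 0 among 13 genes does not set the lower genes apart. A match describes the sequence and does not show binding in these nuclei.

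Genes of class I antigen presentation, which show peptides to CD8 T cells, were called higher in the R241E mice of the 497-nucleus set. H2-D1, a class I heavy chain, stood at 97.7 and 61.3 CPM in R241E, against 0, 0 and 18.4 CPM in WT in the 497 nuclei (3.24 ± 0.61, adjusted p = 0.0292). H2-K1, the other classical heavy chain of this strain, stood at 103 and 66.2 CPM against 21.3, 26.6 and 20.7 CPM (1.97 ± 0.37, adjusted p = 0.0292). B2m, the light chain shared by class I molecules, stood at 71.4 and 66.2 CPM against 17.0, 13.3 and 20.7 CPM (1.99 ± 0.37, adjusted p = 0.0292). Heavy and light chains were thus both called. Over all chosen nuclei the 3 genes did not overlap between groups either, but their adjusted p was 0.0542 for H2-D1, 0.0605 for H2-K1 and 0.057 for B2m. Of the 22 class I genes in the list, 13 were higher without overlap in all chosen nuclei (59.1%, against 10.9% of all genes) and 0 lower (8.02% of all genes), with a median log2 fold change of 1.04 without a filter. Nlrc5, the transactivator of class I genes, had 42.6 and 36.8 against 8.52, 0 and 13.8 CPM and was not called (adjusted p = 0.13). Class I heavy chains are close copies of each other, and reads that match several of them can be lost.

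Genes of the interferon receptor and its signalling chain differed less between the genotypes. Ifnar1, the first receptor chain, stood at 21.3 and 14.7 CPM in R241E, against 17.0, 17.8 and 20.7 CPM in WT in the 497 nuclei. Ifnar2, the second chain, stood at 52.6 and 29.4 against 42.6, 39.9 and 36.8 CPM, and Jak1 at 109 and 108 against 149, 124 and 124 CPM. Neither Ifnar2 (log2 fold change 0.17 ± 0.37) nor Jak1 (−0.25 ± 0.24) was called, and Ifnar1 did not pass the filter on low counts. Of the genes for parts of ISGF3, Irf9 at 66.4 and 53.9 against 4.26, 13.3 and 29.9 CPM and Stat2 at 103 and 90.7 against 21.3, 39.9 and 64.5 CPM did not overlap between groups but were not called (adjusted p = 0.129 and 0.172). Of 22 signalling genes with a UMI in all chosen nuclei, 6 were higher without overlap (27.3%, against 10.9% of all genes) and 3 were lower, where 8.02% of all genes were.

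Cgas itself was barely detected in astrocytes, with 0 and 1 UMIs in R241E, against 2, 0 and 0 in WT, over all 607 nuclei. Tmem173, which encodes STING, had 6 and 0 UMIs in R241E and 0, 1 and 1 in WT. Tbk1, the kinase below STING, stood at 77.7 and 98.1 against 63.9, 93.2 and 104 CPM in the 497 nuclei, and its substrate Irf3 at 45.1 and 44.1 against 38.4, 44.4 and 55.2 CPM, both with overlapping groups. At this depth no difference was detectable for Cgas and Tmem173.

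The interferon genes were spread over many nuclei of the R241E mice. Each nucleus was thinned to 1000 UMIs to make depths equal, which left out 2 WT nuclei. At least 2 UMIs of the interferon list were then held by 45.7% and 36.6% of the R241E nuclei and by 10%, 5.17% and 16.9% of the WT nuclei among all chosen nuclei. Unthinned, the shares were 91.9% and 78.6% against 53.5%, 50% and 48.9%. Both R241E shares lay above all WT shares, with an exact two-sided permutation p = 0.1 for a difference of 30.5 percentage points, the smallest p that 2 and 3 libraries allow. For the 497 nuclei the thinned shares were 44.8% and 34.2% against 10.2%, 3.92% and 14.96%. With exact 95% binomial intervals, which cover counting error only, they ranged from 36.8% to 53.0% and from 25.6% to 43.7% in R241E, and the highest WT share from 9.25% to 22.4%.

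Within each R241E mouse the nuclei were uneven. Of the 497 nuclei 495 could be thinned, and 19 of 154 and 11 of 114 in R241E held 5 or more interferon UMIs, against 0 of 49, 0 of 51 and 3 of 127 in WT. The highest nuclei held 15 and 16 in R241E, against 3, 2 and 19 in WT, so the single highest nucleus was in WT replicate 3. In R241E 32.5% and 35.1% of these nuclei held no interferon UMI after thinning, against 65.3%, 62.7% and 60.6% in WT. The variance of the count over its mean was 4.001 and 3.76 in R241E and 1.16, 0.794 and 5.21 in WT, where a value of 1 is that of Poisson counting. The Slc47a1-high nuclei, taken alone, gave shares with at least 2 UMIs of 55.3% and 52.9% in R241E and 25%, 20% and 57.1% in WT, from 20 WT nuclei in all, and the groups overlapped.

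**Figure D3:**
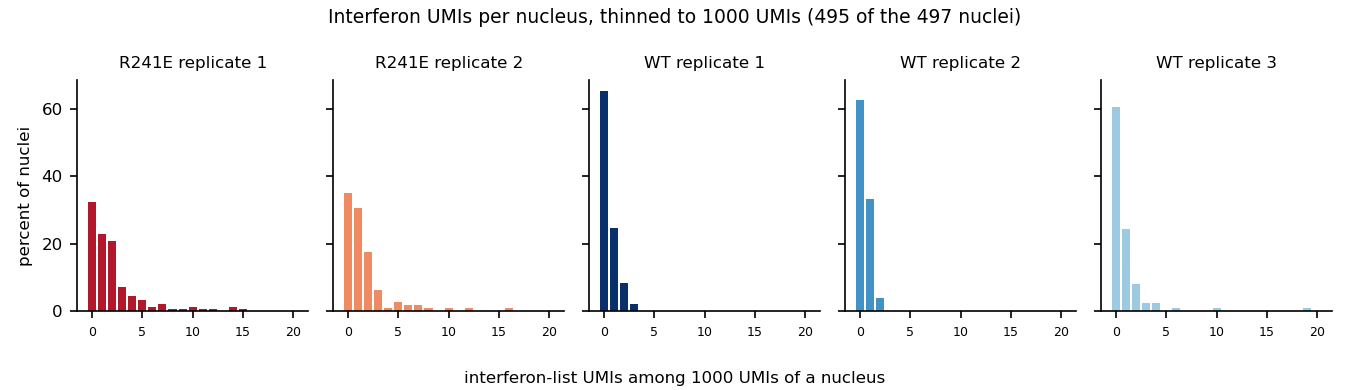
Percent of nuclei (y axis) by the number of interferon-list UMIs among 1000 UMIs of a nucleus (x axis), with 1 panel per mouse, for 495 of the 497 nuclei. The bar at 0 is at 32.5% and 35.1% in the R241E mice and at 60.6% to 65.3% in the WT mice, and the bars at 5 or more hold 19, 11, 0, 0 and 3 nuclei from left to right.

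Microglial RNA could enter astrocyte droplets, and its level was measured. The rule had already left out nuclei with more than 2 UMIs of P2ry12, Siglech and Gpr34, so a low level was partly set in advance. The part of microglial RNA in the interferon difference was not tested. The 20 microglial genes outside the rule stood in the 497 nuclei at 1.59% and 1.64% of their microglial level in R241E and at 1.13%, 2.19% and 2.29% in WT. At those percentages the interferon list of microglia would amount to 111 and 103 CPM in the R241E astrocytes, against 2060 and 1594 CPM measured. In WT the measured list totals were 460, 417 and 663 CPM (exact permutation p = 0.1 for the difference between 2 and 3 libraries). Ifi204, a DNA-sensor family gene at 460 and 386 CPM in R241E microglia, had no UMI in any chosen nucleus, a count that allows up to 1.87 CPM in R241E astrocytes. Of the 20 microglial genes, 1 was higher in R241E without overlap in the 497 nuclei (5%, against 10.7% of all genes). Another 3 were lower, where 7.97% of all genes were, and none was at 0 UMIs. With 20 genes these counts are too small to be told from the shares of all genes.

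The interferon difference was present in nuclei of each regional make-up. Among the 497 nuclei, 185 held UMIs of non-telencephalic genes and none of telencephalic genes, 91 the reverse, 129 both and 92 neither. In the 185 nuclei the interferon list stood at 2049 and 1523 CPM in R241E, against 430, 357 and 370 CPM in WT. In nuclei with both kinds of gene it stood at 2157 and 1129 CPM against 381, 385 and 930 CPM. In the 92 nuclei with neither it stood at 1053 and 1933 CPM against 642, 541 and 789 CPM, and in the 91 telencephalic nuclei at 6729 and 2766 CPM against 524, 453 and 601 CPM. R241E replicate 1 contributed 3 nuclei to the last group. Both R241E mice lay above the 3 WT mice in all 4 groups of nuclei.

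Within the 185 non-telencephalic nuclei, Gm4951 had 131 and 69.0 CPM in R241E and no UMI in WT, and Ddx60 had 120 and 109 CPM and no UMI in WT. Oasl2 had 94.8 and 57.5 CPM against 26.0, 0 and 0 CPM, and B2m 74.5 and 91.9 CPM against 13.02, 0 and 12.7 CPM. H2-K1 overlapped there, at 106 and 51.7 against 52.1, 48.6 and 12.7 CPM. Tests with region held fixed were weak. With the telencephalic share of each library as a covariate, 182 genes were called in all chosen nuclei, Gm4951 among them (adjusted p = 0.0428), and 11 in the 497 nuclei, where Oasl2 (log2 fold change 2.57, adjusted p = 0.469) and Gm4951 (3.91, adjusted p = 0.216) missed the threshold with positive fold changes. In nuclei without any telencephalic UMI, edgeR called 0 genes in both sets, with 388 and 245 genes at an unadjusted p under 0.05. The log2 fold changes there, within the 497 nuclei, were 3.86 for Oasl2 and 7.46 for Gm4951 (adjusted p = 0.171 and 0.101), and Gm4951 had no UMI in WT, so that its fitted value depends on the prior count.

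**Figure D4:**
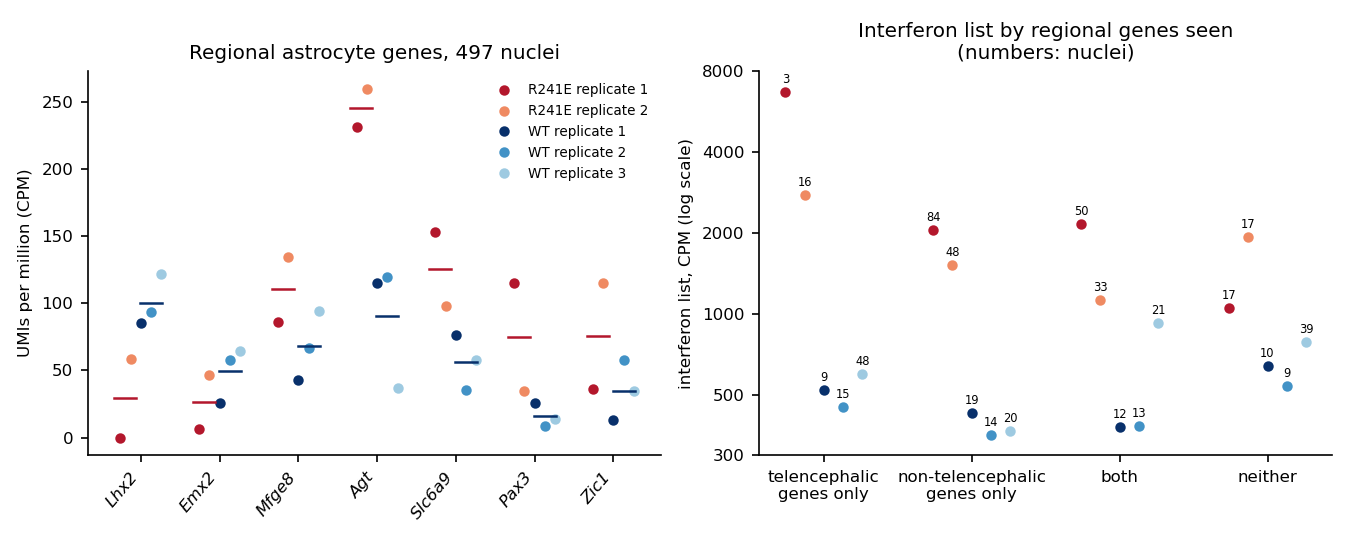
Left, CPM of regional astrocyte genes in the 497 nuclei with 1 point per mouse and a bar at each group mean: Lhx2 is lowest in R241E replicate 1, and Agt is higher in both R241E mice than in all WT mice. Right, CPM of the interferon list (log scale) in nuclei grouped by the regional genes they held, with the number of nuclei beside each point: the 2 R241E mice lie above the 3 WT mice in all 4 groups.

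The 39 genes called in the 497 nuclei were followed into the regional groups, as a description, since these nuclei had served to call them. Of the 24 higher genes, 19 stayed apart in the 185 non-telencephalic nuclei, where 12.5% of all genes were higher without overlap, and 14 in the 91 telencephalic nuclei (5.34% of all genes). Of the 15 lower genes, 2, Lrp4 and Enox1, stayed apart in the 185 nuclei (4.62% of all genes) and 8 in the 91 telencephalic nuclei (11% of all genes). None was apart in the opposite direction. H2-D1 and Trim34a stayed apart in the 185 nuclei, at 97.0 and 63.2 against 0, 0 and 38.2 CPM and at 126 and 138 against 65.1, 48.6 and 51.0 CPM.

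Several calls outside the interferon lists changed with the regional group. The metabotropic glutamate receptor gene Grm8 had the smallest p, at 149 and 125 CPM in R241E and 17.0, 13.3 and 16.1 CPM in WT (3.16 ± 0.33, adjusted p = 0.00102). In the 185 non-telencephalic nuclei it stood at 76.7 and 86.2 against 39.1, 48.6 and 76.5 CPM, and R241E replicate 1 and WT replicate 3 were nearly equal there. Lhfpl3 went from 314 and 137 against 51.1, 35.5 and 34.5 CPM to overlapping groups in those nuclei, 478 and 86.2 against 130, 81.1 and 38.2 CPM. Car10, a carbonic anhydrase-related gene, went likewise from 266 and 135 against 46.9, 35.5 and 62.2 CPM to 226 and 103 against 130, 48.6 and 127 CPM. Nkain4, whose product binds the sodium pump, stayed apart, at 167 and 208 against 72.5, 79.9 and 69.1 CPM in the 497 nuclei and 158 and 253 against 104, 130 and 127 CPM in the 185. The tetraspanin gene Cd81 also stayed apart, at 580 and 662 against 324, 311 and 297 CPM and then 564 and 649 against 378, 357 and 268 CPM.

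The called genes that were lower in R241E included Mertk, the receptor with which astrocytes engulf synapses, at 309 and 380 CPM against 776, 719 and 679 CPM (−1.05 ± 0.21, adjusted p = 0.0405). Lrp4, a receptor of agrin, stood at 86.4 and 98.1 against 166, 297 and 302 CPM (−1.45 ± 0.27, adjusted p = 0.0292). Slc35f1, at 42.6 and 58.8 against 141, 275 and 193 CPM, was called in both sets of nuclei, as were Fam184b, Enox1, Tmem132b and Syt17. In the 185 non-telencephalic nuclei Mertk overlapped, at 316 and 368 against 391, 292 and 612 CPM, and so did Slc35f1, at 45.1 and 46.0 against 0, 259 and 89.2 CPM. In the 91 telencephalic nuclei, with 3 nuclei from R241E replicate 1, both were lower in R241E without overlap, Mertk at 112 and 403 against 1157, 1314 and 804 CPM and Slc35f1 at 112 and 38.4 against 181, 467 and 191 CPM. Lrp4 stayed apart in the 185 nuclei, at 74.5 and 46.0 against 78.1, 81.1 and 255 CPM, but overlapped in the 91. Enox1 likewise stood at 56.4 and 28.7 against 78.1, 97.3 and 127 CPM in the 185 nuclei and overlapped in the 91. The adhesion receptor gene Adgrl2 and Lypd6, a modulator of nicotinic receptors, were called at 6.26 and 9.81 against 34.1, 84.3 and 94.4 CPM and at 2.50 and 14.7 against 76.7, 31.1 and 110 CPM. Both overlapped in the 185 nuclei, and in the 91 telencephalic nuclei Lypd6 was lower without overlap while Adgrl2 overlapped. The part of the regional mix in these calls was not tested beyond these values.

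**Figure D5:**
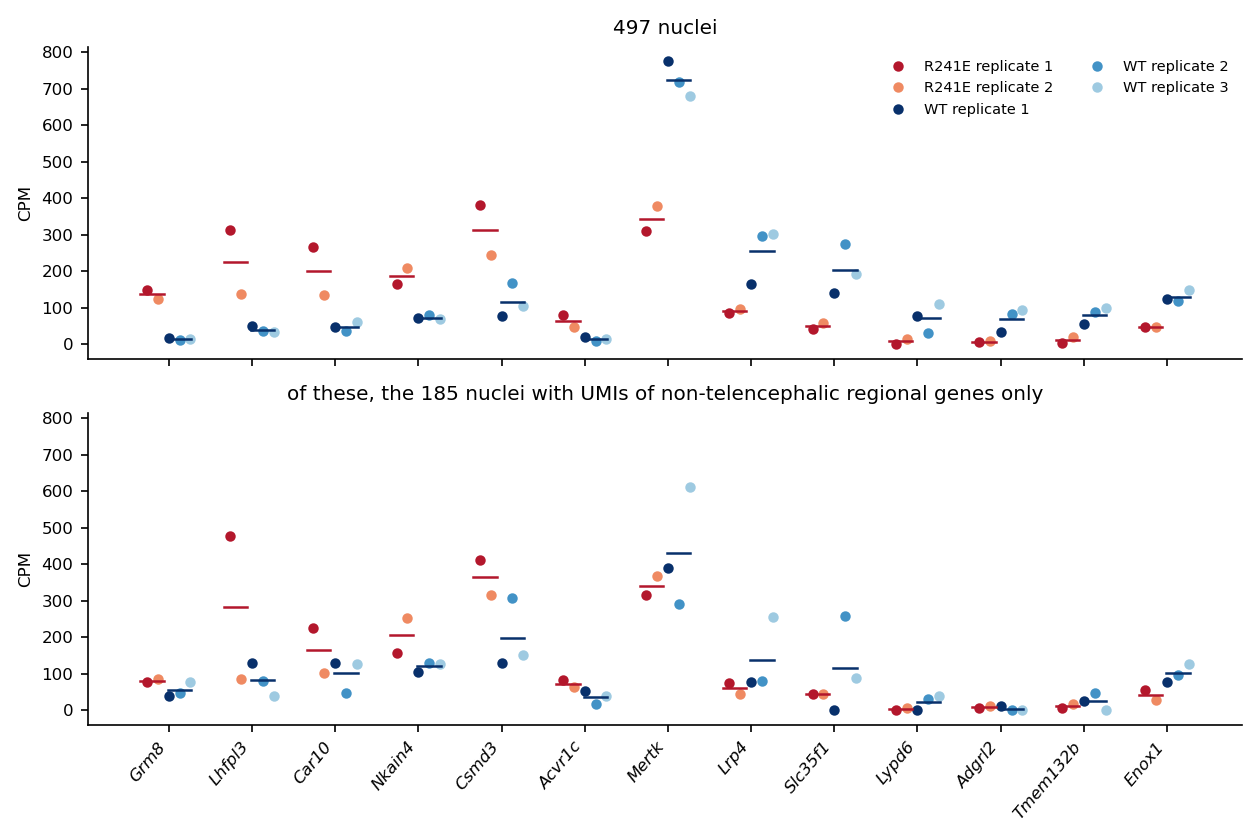
CPM of called genes outside the interferon lists, with 1 point per mouse and a bar at each group mean, in the 497 nuclei (top) and in the 185 of them with non-telencephalic regional genes only (bottom). Lhfpl3, Car10, Mertk, Slc35f1, Lypd6 and Adgrl2 are apart in the top panel and overlap in the bottom one, while Nkain4, Lrp4 and Enox1 are apart in both.

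No gene of the reactive astrocyte lists was called in all chosen nuclei. Gfap, the intermediate filament gene that rises in reactive astrocytes, stood at 33.8 and 101 CPM in R241E, against 51.1, 102 and 94.4 CPM in WT in the 497 nuclei. C4b, the complement gene, stood at 129 and 164 against 25.6, 102 and 120 CPM (log2 fold change 0.78 ± 0.36, adjusted p = 0.496). No pan-reactive gene was called in either set of nuclei, but only 3 in all chosen nuclei and 1 in the 497 passed the filter on low counts. Of the 12 with a UMI, 3 were higher without overlap in all chosen nuclei (25%, against 10.9% of all genes). Of the list known as the A1 set, 5 of 12 were higher without overlap (41.7%, against the same 10.9%) and none was called there, whereas H2-D1 was called in the 497 nuclei. Among these 5, H2-T23, H2-D1 and Psmb8 are also in the class I list and Iigp1 is in the interferon list. Only Fbln5 is in neither, so the A1 count is not separate from the counts of those lists. Of the A2 set 1 of 12 was higher without overlap (8.33%), below the share of all genes. Of 16 genes of the NF-kB and cytokine response with a UMI, 2 were higher without overlap (12.5%, near the 10.9% of all genes), 1 was lower and none was called, and Nfkb1 stood at 139 and 164 against 209, 146 and 143 CPM. Activity and stress genes gave 5 of 16 higher without overlap (31.2%, against 10.9%) and no call. Few genes of these lists passed the filter on low counts. In all chosen nuclei 5 of the A1 set, 2 of the A2 set, 8 of NF-kB and 7 of activity and stress did. In the 497 nuclei the numbers were 3, 1, 6 and 4. The missing calls therefore say nothing of the genes that were not tested.

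No gene of the lists for normal astrocyte work was called in all chosen nuclei. The 27 astrocyte markers outside the rule had a median log2 fold change of 0.40 in all chosen nuclei, with 6 higher (22.2%, against 10.9% of all genes) and 1 lower without overlap and no call. Transmitter and ion handling genes had a median of 0.37, with 7 of 22 higher (31.8%, against 10.9%) and 2 lower without overlap and no call. In the 497 nuclei 8 of the 27 markers were higher (29.6%, against 10.7% of all genes) and 1 was lower without overlap, with a median of 0.43. Of the transmitter and ion handling genes 9 were higher there (40.9%) and 2 lower, with a median of 0.48. No gene of these 2 lists was called in the 497 nuclei either. The glycine transporter gene Slc6a9, which is also a gene of non-telencephalic astrocytes, was at 153 and 98.1 against 76.7, 35.5 and 57.6 CPM in the 497 nuclei (adjusted p = 0.13). Apoe, the main lipoprotein of astrocytes, stood at 2373 and 3346 against 1309, 1509 and 2203 CPM without overlap (0.80 ± 0.23, adjusted p = 0.15). With the telencephalic share as a covariate, Apoe was called in these nuclei (log2 fold change 1.52, adjusted p = 0.0022), whereas in those of them without telencephalic UMIs it was not (0.45, adjusted p = 0.887). Of 23 genes of cholesterol synthesis and lipid export, 7 were lower and 0 higher without overlap in all chosen nuclei, against 8.02% of all genes lower, with a median of −0.25 and no call.

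Synapse-directed genes had a median log2 fold change of −0.21 in all chosen nuclei, with 6 of 22 lower and 3 higher without overlap, where 8.02% of all genes were lower and 10.9% higher, and no call. In the 497 nuclei 1 member, Mertk, was called lower. Gpc6, a glypican that promotes synapse formation, stood at 560 and 527 against 1019, 896 and 891 CPM in the 497 nuclei and was not called (adjusted p = 0.139). Over all chosen nuclei Gpc6 overlapped, at 919 and 999 against 899, 976 and 906 CPM. Sparcl1, another secreted synapse-forming protein, stood at 1563 and 1603 against 1181, 750 and 840 CPM and was not called (adjusted p = 0.145). Clock genes gave 4 of 17 higher (23.5%, against 10.9% of all genes) and 2 lower without overlap, no call and a median of 0.09, with Per3 at 179 and 179 against 128, 146 and 110 CPM.

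Genes of other cell types were checked in the same nuclei. Of 11 neuronal genes, 3 were lower in R241E without overlap over all chosen nuclei, where 8.02% of all genes were, and none was called, with a summed level of 698 and 326 CPM against 2347, 851 and 589 CPM. Over the 497 nuclei the sums were 170 and 282 against 188, 178 and 467 CPM and overlapped, lower in part by construction, since 7 of these 11 genes had served to leave nuclei out. Oligodendrocyte genes outside the rule summed to 353 and 270 CPM in R241E and to 806, 209 and 196 CPM in WT in the 497 nuclei, with WT replicate 1 highest. Vascular and fibroblast genes summed to 372 and 407 CPM against 290, 271 and 290 CPM there, without overlap, and to 436 and 480 CPM against 254, 322 and 303 CPM in all chosen nuclei. Their part in the other differences was not tested.

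Oligodendrocytes and microglia of the same mice were compared to ask whether the genotype difference was particular to astrocytes. Under like limits on the same marker genes there were 617 oligodendrocytes and 5137 microglia. The thinned share of nuclei with at least 2 interferon UMIs was 19.4% and 20.5% in R241E oligodendrocytes against 2.33%, 6.45% and 8.41% in WT, and 89.6% and 83.0% in R241E microglia against 39.9%, 42.8% and 42.7% in WT. The R241E mice lay above the WT mice in all 3 classes. The class-by-genotype test called 9 of 8040 genes between astrocyte-marker nuclei and oligodendrocytes (0.112%) and 8 of 13760 between astrocyte-marker nuclei and microglia (0.0581%), and no member of the interferon list was among them.

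For Oasl2 the genotype difference in the 607 nuclei was −0.97 ± 0.59 log2 units relative to that in microglia and 1.57 ± 1.27 relative to that in oligodendrocytes. For B2m these values were −0.22 ± 0.38 and −0.43 ± 0.66. These errors are wide, and the missing calls do not show that the classes responded alike. Gm4951 gave 1.65 ± 0.61 relative to microglia (adjusted p = 0.552) and Ifi27 1.63 ± 0.33 (adjusted p = 0.142). Ifi27 stood at 55.9 and 46.1 CPM in R241E microglia and 41.9, 50.2 and 52.3 CPM in WT microglia, overlapping, and at 194 and 249 against 56.6, 60.0 and 134 CPM in oligodendrocytes. The levels themselves differed between classes: B2m stood at 396 and 542 CPM in R241E microglia, against 75.3 and 69.2 CPM in the chosen astrocyte nuclei of those mice.

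The class-by-genotype test gave partly other genes once the Slc47a1-high and neuronal-gene nuclei were both left out. Then 12 of 7714 genes differed from oligodendrocytes (0.156%) and 1 of 13162 from microglia (0.0076%). The neuregulin receptor gene Erbb4 remained, at 3149 and 2182 CPM in R241E and 1432, 1371 and 594 CPM in WT astrocytes of the 497 nuclei, against 865 and 718 CPM and 1511, 1439 and 654 CPM in oligodendrocytes (interaction 1.86, adjusted p = 0.00159). In the 185 non-telencephalic astrocyte nuclei Erbb4 overlapped, at 3295 and 2649 against 2891, 3000 and 1517 CPM, and with the telencephalic share as a covariate its log2 fold change in astrocytes was 0.06. In the 91 telencephalic nuclei, with 3 nuclei from R241E replicate 1, Erbb4 was higher in R241E without overlap. It stood there at 2692 and 1152 against 163, 14.6 and 208 CPM. Tmem132b was lower in R241E astrocytes, at 3.76 and 19.6 against 55.4, 88.8 and 99.0 CPM, and overlapped in oligodendrocytes, at 146 and 77.1 against 84.8, 112 and 83.9 CPM (interaction −3.47, adjusted p = 0.00159). Nhs was the gene left between astrocytes and microglia. It stood at 58.9 and 58.8 against 42.6, 13.3 and 16.1 CPM in astrocytes and at 6.94 and 9.88 against 68.5, 66.9 and 47.2 CPM in microglia (interaction 4.33, adjusted p = 0.00795). Tmem132b and Nhs also overlapped in the 185 nuclei, at 6.77 and 17.2 against 26.0, 48.6 and 0 CPM and at 63.2 and 69.0 against 91.1, 32.4 and 12.7 CPM. The class-by-genotype test was not run within regional groups.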

How the data were processed

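The authors deposited raw UMI counts, 1 matrix per mouse with called nuclei only, made with Cell Ranger 7.0.0 and the 10x Genomics annotation of mm10. Whether intronic reads were counted is not stated for these files. Nuclei with at least 200 and under 4500 genes, under 10000 UMIs and under 5% mitochondrial UMIs were kept, as the study's methods state. No doublet caller was run. The upper limits on genes, UMIs and other cells' markers served instead, and depth per nucleus was limited to these nuclei's own UMIs. Groups and replicate numbers came from the sample titles. A text on H151 and DMSO in aged mice accompanies the samples, but no label assigns either, so it was not used.

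Counts of the chosen nuclei were summed per mouse and tested with edgeR 4.0.16 in R 4.3.3 (TMM, filterByExpr, quasi-likelihood test, Benjamini-Hochberg adjustment over all genes tested, called at an adjusted p under 0.05), since nuclei of 1 mouse are not replicates. The study tested single nuclei instead. Differences between classes were tested as the interaction of genotype and class with mouse as a term. Values per library were compared with exact two-sided permutation tests over libraries (scipy 1.17.1). CPM are a gene's UMIs as a part of 1000000 UMIs of the summed nuclei. Alternatives used DESeq2 1.42.0 and limma-voom (limma 3.58.1), other filters, thinning, the telencephalic share and each library left out. Leaving out the Slc47a1-high and neuronal-gene nuclei was chosen after seeing the data. On counts simulated from these libraries, the genotype test over 7577 genes recovered 5.97% of genes changed 2-fold (4 genes). It recovered 74.1% of those changed 4-fold (43 genes) and 94.0% of those changed 8-fold (47 genes), so small changes were mostly out of reach. It also made 16 false calls, a larger share of its calls than the adjusted p threshold of 0.05 allows for. Some of the genes called between genotypes may therefore be false. The simulation of the genotype test was not repeated without the Slc47a1-high and neuronal-gene nuclei. The oligodendrocyte interaction test over 4840 genes recovered 98.0% of 8-fold changes with 16 false calls.

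The rule for choosing nuclei, the gene lists and the tests were chosen with earlier results of these data known. Named genes were those called (up to 40), of each list the called members and the 6 with the highest mean CPM, Cgas and Tmem173, and the genes of the rule. Members named outside this rule, such as Iigp1, Isg15, Usp18, Nhs and Erbb4, were chosen after their values were seen. Symbols were matched to RefSeq (GRCm38.p6) for positions and promoters. Some gene results are not reported here.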

Additional observations from a re-analysis of the deposited data

Results flagged for a closer look

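The genotype difference was unequal between astrocyte-marker nuclei and another class for 9 and 8 genes, most of them given here, by the interaction test of edgeR. Relative to oligodendrocytes, the log2 difference was 2.54 for Piezo2 (adjusted p = 0.00978), 2.11 for Stk39 (0.00978), 4.28 for Ebf1 (0.0258), 1.95 for Dock5 (0.0258), 1.72 for Clic4 (0.0303), 1.81 for Tmeff2 (0.0488) and 1.68 for Erbb4 (0.031), and −5.27 for Zfp385b (0.0106) and −2.90 for Tmem132b (0.0106). In the 497 nuclei without the Slc47a1-high and neuronal-gene nuclei, Piezo2 (−0.62), Stk39 (−0.01) and Tmeff2 (−0.48) were near or below 0, Ebf1 was too low to test, and Dock5 (1.13), Clic4 (1.44) and Zfp385b (−3.60) kept their direction without a call. Erbb4 (1.86) and Tmem132b (−3.47) were called there, each at an adjusted p of 0.00159.

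Relative to microglia, the log2 difference was 4.01 for Ifitm10 (adjusted p = 0.0119), 2.20 for Sh3pxd2a (0.0309), 2.79 for Sox2ot (0.0309), 3.53 for Nhs (0.0309), 3.31 for Ebf1 (0.0396), −2.65 for Chic1 (0.0396) and −4.20 for Tshr (0.0474). In the 497 nuclei the value was −0.01 for Ifitm10, 0.08 for Sh3pxd2a and 0.98 for Ebf1, none of them called. Sox2ot (3.69, adjusted p = 0.13), Chic1 (−2.53, 0.0576) and Tshr (−4.03, 0.0576) kept their direction without a call, and Nhs (4.33, 0.00795) was called. Sox2ot, a long noncoding RNA that overlaps Sox2, stood at 4.23 and 4.61 CPM in R241E microglia against 164, 33.2 and 37.8 CPM in WT microglia, and overlapped between the genotypes in the 497 astrocyte nuclei, at 406 and 297 against 367, 457 and 378 CPM. Tshr, the thyrotropin receptor gene, stood at 103 and 17.2 CPM in R241E against 200, 146 and 281 CPM in WT in those nuclei, and R241E replicate 2 was the lowest. In the 185 non-telencephalic nuclei Tshr overlapped, at 99.3 and 5.75 against 78.1, 48.6 and 89.2 CPM.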

How the results depend on the processing

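With 2 and 3 mice, no value per library could reach an exact permutation p under 0.1, and a call rested on few residual degrees of freedom. The difference in the astrocyte share was 4.64 percentage points over kept nuclei, 2.59 over nuclei outside the microglial limits and 3.02 with no UMI of the excluded genes allowed. The telencephalic share differed by −44.4 points with Lhx2 and Agt alone. The genotype difference in the share of nuclei with interferon UMIs stayed between 25.9 and 35.0 points under the alternatives run, while the group means themselves rose from 41.2% and 10.7% to 85.3% and 50.8% without thinning and to 68.3% and 38.3% at 1 or more UMIs. Against 33 genes called in all chosen nuclei, there were 549 without a filter on low counts (272 higher and 277 lower), 69 with DESeq2 (40 and 29), 24 with DESeq2 size factors, 27 with limma-voom, 51 with at least 10 marker UMIs, 4 after thinning and 182 with the telencephalic share as covariate (31 and 151). The count by edgeR was 0 with no UMI of the excluded genes (556 at an unadjusted p under 0.05), without telencephalic UMIs (388) and in telencephalic nuclei without R241E replicate 1 (95). Leaving out 1 library gave 0 to 8 calls. Against 39 calls in the 497 nuclei, there were 271 without a filter, 11 with the covariate, 0 without telencephalic UMIs (245 at an unadjusted p under 0.05), 13 with DESeq2, 15 with limma-voom and 0 to 120 with 1 library left out.

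For genes unequal between classes, leaving out the filter gave 79 for oligodendrocytes and 224 for microglia, leaving out the Slc47a1-high and neuronal-gene nuclei gave 1 for microglia, and leaving out 1 library gave 4 to 65 and 0 to 50. Without the Slc47a1-high and neuronal-gene nuclei the log2 fold changes of Foxp2 (−0.71), Ror1 (−0.96), Slit2 (−0.11) and Stk39 (−0.27) turned negative. Of the other values of the 33 called genes under the alternatives, 199 kept direction and call and 308 kept direction alone, and of those of the 39 genes 179 and 233 did so. With the replicate number as a block, 390 genes were called in all chosen nuclei (160 higher and 230 lower) and 169 in the 497. The numbers are only shared numbers: the correlation of deviations from the group means was 0.273 between the mice numbered 1 and 0.00683 between those numbered 2. The causes of these changes were not tested.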
